A study of Mus musculus with 83 samples.

Results

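The nuclear genes for the subunits of oxidative phosphorylation were followed through 4 types of cortical neuron and 2 ages. A gene was a member if its symbol began with Nduf and one of the letters a, b, c, s or v before a digit, with Uqcr, with Atp5, or with Cox and a digit from 4 to 8 before a, b, c or i, or if it was one of Sdha, Sdhb, Sdhc and Sdhd. Symbols ending in -ps were left out, which removed 6 rows. The rule found 88 of the 48795 genes in the count table. It placed 39 in complex I, 4 in complex II, 8 in complex III, 20 in complex IV (19 Cox genes and Ndufa4) and 17 in complex V. Of these, 84 are annotated as protein coding, and Cox6c2, Ndufa11b, Ndufb4c and Ndufs6b as processed pseudogenes.

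Oxidative phosphorylation is carried out in the inner mitochondrial membrane. Complexes I and II pass electrons from NADH and succinate to ubiquinone, complex III passes them to cytochrome c, complex IV passes them to oxygen, and complex V uses the resulting proton gradient to make ATP. Most subunits are encoded in the nucleus and are joined to a core made from mitochondrial DNA, except that complex II is wholly nuclear. Parvalbumin interneurons fire at high rates and are known for dense mitochondria.

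The tissue was frontal cortex of male C57BL/6 mice aged 2 months (young) or 22 months (old), with no genetic change or treatment named. Each library was made from a pool of 125 neurons cut by laser from 14 µm sections. Pyramidal cells (PYC) had been recognised by staining for Slc17a7, and 3 classes of interneuron by staining for Pvalb (parvalbumin, PV), Sst (somatostatin, SST) and Vip (vasoactive intestinal peptide, VIP). There were 12 old libraries of each type, 9 young libraries each of PYC, SST and VIP, and 8 of PV, making 83. No label names a batch or links a library to its mouse. The series gives 9 young and 12 old mice, fewer than the libraries, so some pools share a mouse. Which pools do so, within a type or between types, is not recorded, and the tests treat all pools as independent.

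The shallowest library held 1.46 M counts (M, 1000000), the median one 6.99 M and the deepest 27.2 M, and 40 members had a count in every library. The labelled types carried their markers, since all 5 PV genes tested (Pvalb, Tac1, Kcng4, Syt2 and Kcnc1) were higher in PV, all 5 SST genes in SST and all 5 VIP genes in VIP. Pyramidal genes were detected in every type: the summed level of 6 pyramidal genes ranged from 899 to 2507 CPM (counts per 1000000 counts of the library) with a median of 1281 in PYC, from 372 to 1101 with a median of 668 in VIP, from 342 to 726 with a median of 509 in SST, and from 201 to 687 with a median of 377 in PV pools. None of the 6 was at 0 in any type. Of the marker lists of astrocytes, oligodendrocytes, their precursors, microglia, endothelium and red blood cells, no gene passed the test in PV, PYC or VIP, and in SST 2 passed, of which the astrocyte gene Aldoc was lower. In 6 libraries (young PYC 2, old PYC 10, young SST 6, young VIP 1 and 3, old VIP 11) mitochondrially encoded genes, ribosomal RNA included, took under 3% of the counts, and results are given without them where they matter.

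The members' promoters are shown first, with binding motifs of a small set of factors counted in them. NRF1, GABPA (an ETS family factor) and YY1 are the factors classically tied to nuclear genes of the respiratory chain. RefSeq windows (GRCm38.p6) were found for 68 of the 88 members, and 3 are printed, each of 250 bases ending at the annotated start. They are from members of complexes IV, II and III that were higher in PV pools than in each other type. Each of the 3 holds a marked site and is not typical, since most members' windows lack each motif, as counted below. Capitals mark the NRF1 half-site TGCGCA, which is its own reverse complement, and the GABPA core CCGGAAG or its reverse complement CTTCCGG.
Cox6a1, chr5:115348959-115349208, minus strand: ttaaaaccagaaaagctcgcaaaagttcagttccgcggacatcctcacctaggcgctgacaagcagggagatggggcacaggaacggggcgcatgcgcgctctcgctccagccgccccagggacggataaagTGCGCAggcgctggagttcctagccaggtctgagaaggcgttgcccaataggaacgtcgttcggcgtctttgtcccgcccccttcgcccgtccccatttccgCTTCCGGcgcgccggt
Sdha, chr13:74350241-74350490, minus strand: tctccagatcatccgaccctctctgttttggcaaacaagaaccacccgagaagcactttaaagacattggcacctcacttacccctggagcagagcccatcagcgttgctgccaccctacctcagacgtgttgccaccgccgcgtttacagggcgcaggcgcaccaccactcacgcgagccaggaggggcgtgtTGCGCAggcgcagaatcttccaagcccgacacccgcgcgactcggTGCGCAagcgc
Uqcrh, chr4:116075071-116075320, minus strand: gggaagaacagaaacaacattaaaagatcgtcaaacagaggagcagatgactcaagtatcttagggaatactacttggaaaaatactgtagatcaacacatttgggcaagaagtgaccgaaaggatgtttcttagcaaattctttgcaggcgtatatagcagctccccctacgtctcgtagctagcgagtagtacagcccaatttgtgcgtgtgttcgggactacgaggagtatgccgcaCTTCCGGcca

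Cox6a1 held one site of each kind, Sdha held 2 half-sites and Uqcrh 1 ETS core. On both strands of these 250 bases, TGCGCA was present in 14 of the 68 members (20.6%) and in 7.36% of the 27025 genes with a window. CCGGAAG was present in 12 of 68 (17.6%) against 7.83% of all genes. The YY1 core AAGATGG was present in 1 of 68 (1.47%) before the start against 5.18% of all genes, and in 11 of 68 (16.2%) against 7.28% once the first 50 transcribed bases were added. With those bases added, TGCGCA was present in 26.5% of members and 8.79% of all genes, and CCGGAAG in 23.5% and 9.93%. Among members higher in PV by the test described later, TGCGCA was in 8 of 39 and 6 of 29 of the others, and CCGGAAG in 7 of 39 and 5 of 29. These counts describe letters in the window and not binding.

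The first comparison asked how the levels of these genes differed between the types. PV pools had the highest levels of every complex (the plot of summed level per library). For all 88 genes together, the summed level was 6933 ± 939 CPM (SD, n = 20) in PV, against 4312 ± 603 (SD, n = 21) in PYC, 4685 ± 698 (SD, n = 21) in SST and 3929 ± 509 (SD, n = 21) in VIP. The lowest PV library held 5130 CPM, and 55 of the other 63 libraries lay below it. As a CPM value is a share of the library, these are relative levels and do not give the amount of RNA per cell. In a pool, RNA of the labelled neurons cannot be told apart from RNA of other cells.

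**Figure D1:**
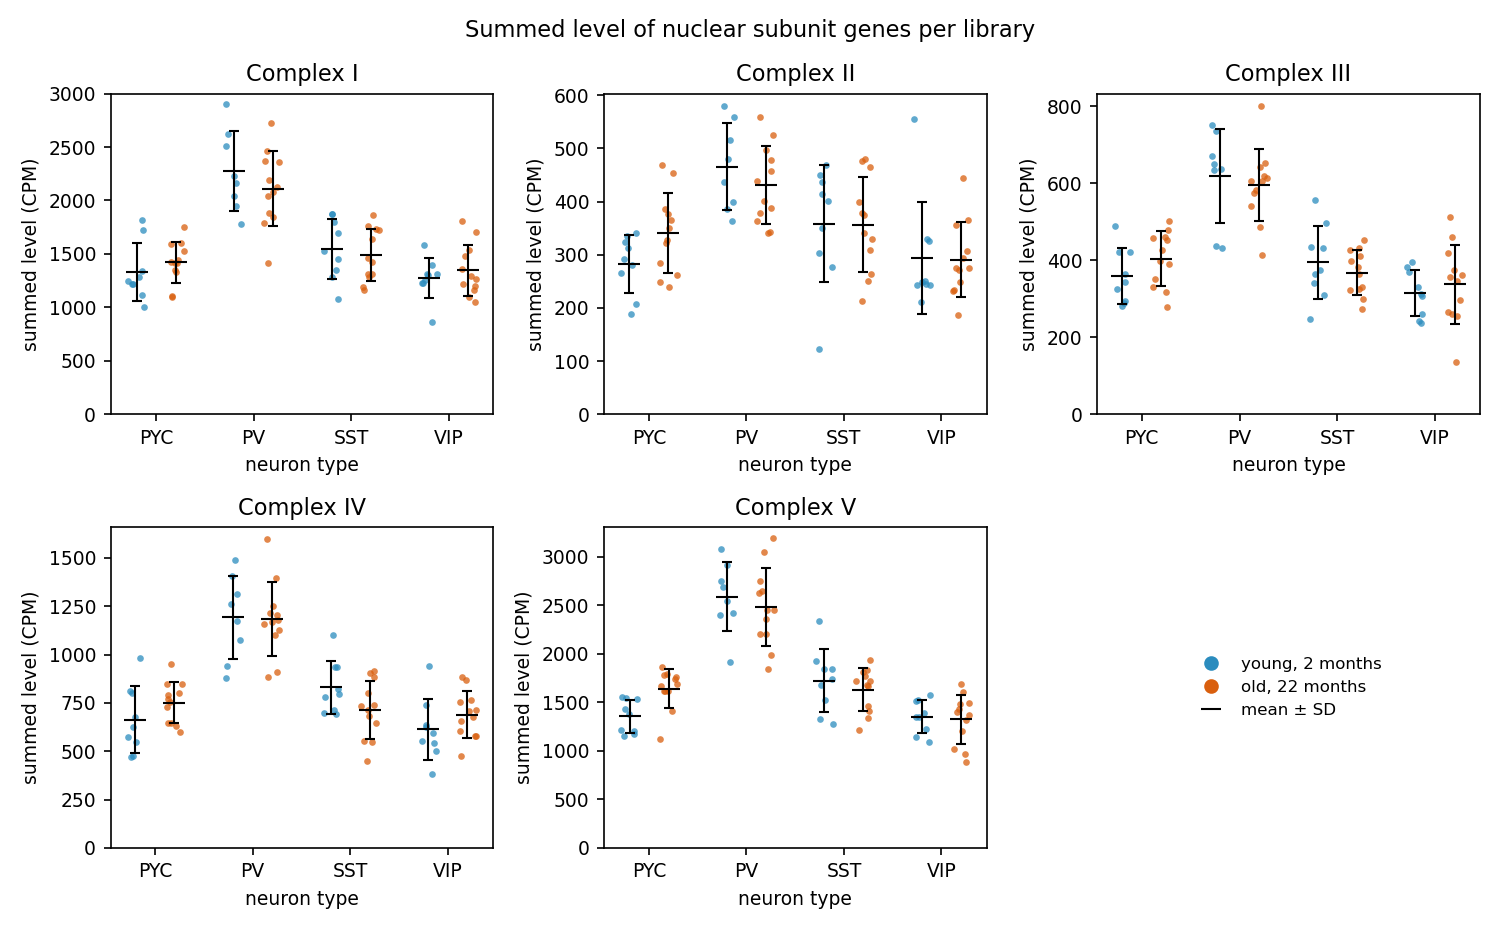
Summed level in CPM (y axis) of the nuclear genes of each complex in each library, by neuron type (x axis), with young libraries in blue and old libraries in orange. Each point is 1 library and bars give the mean ± SD of a group. PV libraries lie above the median of the 63 other libraries in every panel.

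Complex V, the ATP synthase, had a lowest, median and highest summed level of 1842, 2498 and 3191 CPM in PV libraries. Those of PYC were 1120.2, 1558 and 1861 CPM, those of SST 1212, 1719.7 and 2340.3 CPM, and those of VIP 885, 1374 and 1692 CPM. All 20 PV libraries lay above the median of the other 63 libraries and 15 lay above the highest of them. Complex I gave 16 PV libraries above the highest of the others, complex III 15 and complex IV 14. Complex II separated least: its mean was 445 ± 76.4 CPM (SD, n = 20) in PV and 358 ± 95.9 CPM (SD, n = 21) in SST, and 3 PV libraries lay above the highest of the others.

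Gene by gene, each type was compared with the mean of the other 3 types by edgeR's quasi-likelihood test, adjusted over 19208 genes, with a gene called at an adjusted p under 0.05. Of the 79 members that passed the filter on low counts, 47 were higher in PV and 0 were lower, whereas 8.29% of all genes tested were higher and 8.75% lower. The median log2 fold change of the 79 members was 0.79, against -0.05 for all genes, and 77 were above 0. Among the genes at or above the median abundance, 46 of 71 members were higher, against 11.1% of all such genes. In simulated counts of the type comparisons, false calls gathered among genes of low abundance, where more genes were called than the threshold allows, so the shares of all genes called in these comparisons and in the interaction include false calls. Of the 47, only Ndufb6 and Cox6a2 lay below the median abundance of the genes tested. Without the 6 libraries with few mitochondrial counts the number called was again 47.

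**Figure D2:**
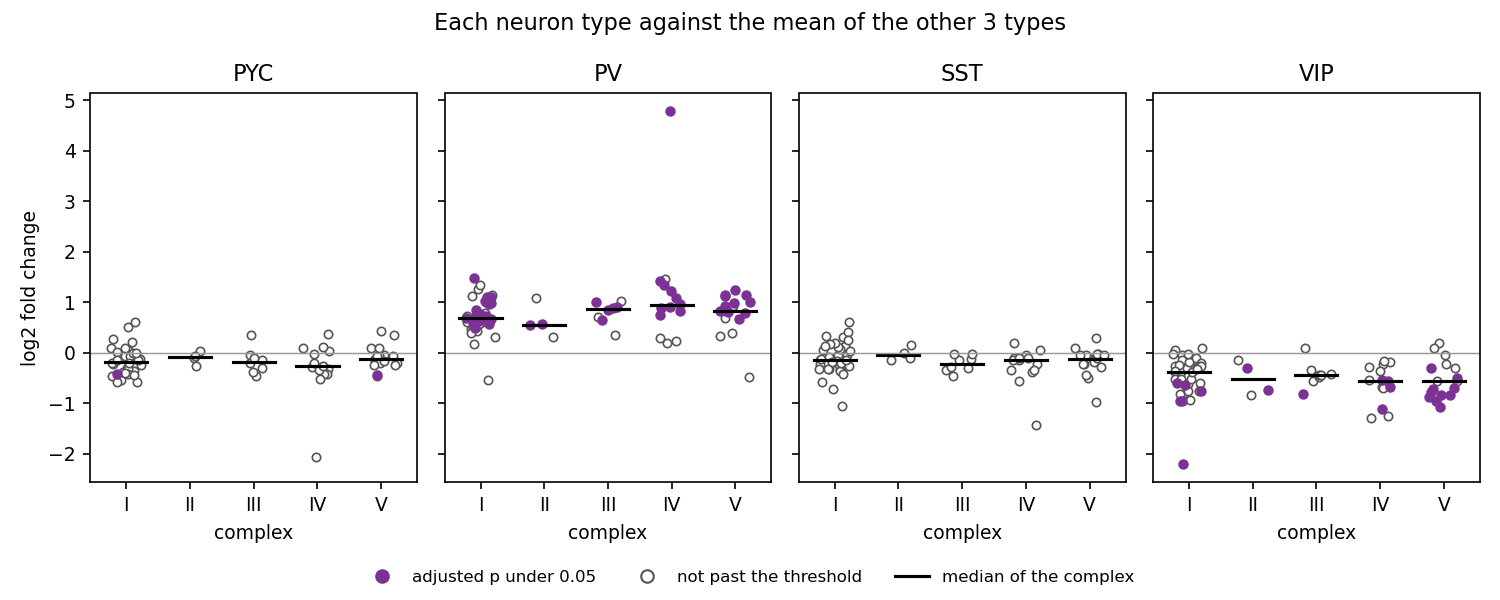
Log2 fold change (y axis) of each tested member in each neuron type relative to the average of the remaining 3, by complex (x axis). Filled points have an adjusted p under 0.05, open points do not, and bars mark the median of a complex. The 47 filled points in PV all lie above 0 and the 23 in VIP all lie below 0, with Cox6a2 at 4.78 in PV.

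By complex, the share of tested members higher in PV was 19 of 36 in complex I, 2 of 4 in complex II, 5 of 8 in complex III, 10 of 14 in complex IV and 11 of 17 in complex V. Median log2 fold changes were 0.70, 0.56, 0.86, 0.94 and 0.83 in that order. The called members ranged from 0.50 for Ndufv3, an accessory subunit of complex I, to 4.78 for Cox6a2, and 14 of the 47 were at or above 2-fold. The summed level of the pyramidal genes was lowest in PV pools and highest in PYC pools, while the summed level of the members was lowest in VIP pools. The part of pyramidal RNA in these results was not tested. The cytosolic ribosomal protein genes, an abundant set of another kind, had 0 of 82 higher or lower in PV, with a median log2 fold change of -0.03.

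Complex V gave the smallest p-values. Atp5b encodes the catalytic beta subunit of the ATP synthase, and its lowest, median and highest levels were 534, 777 and 978 CPM in PV libraries. In PYC they were 341, 455 and 632 CPM, in SST 362, 537 and 664 CPM, and in VIP 184, 435 and 557 CPM. Of the 20 PV libraries, 17 lay above the highest of the other 63. Its log2 fold change in PV was 0.80 ± 0.08 (SE; edgeR adjusted p = 1.13e-15). Atp5a1, the alpha subunit that alternates with beta in the catalytic head, had 422, 660 and 914 CPM in PV and medians of 360, 419 and 371 CPM in PYC, SST and VIP. There, 12 PV libraries lay above the highest of the others, with a log2 fold change of 0.78 ± 0.09 (SE; edgeR adjusted p = 3.71e-13). Atp5c1, which encodes the gamma subunit of the rotating stalk, was higher by 1.15 ± 0.15 (SE) and overlapped more, with 8 PV libraries above the highest of the others.

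The membrane ring of the ATP synthase is built from 1 protein, subunit c, encoded by 3 genes whose mature products are the same. Atp5g3 had 22.3, 57.7 and 136 CPM in PV against medians of 35.4, 35.3 and 18.9 CPM in PYC, SST and VIP. It was higher in PV by 1.24 ± 0.22 (SE; edgeR adjusted p = 2.08e-06). Atp5g1 was higher by 1.12 ± 0.30 (SE; adjusted p = 0.00307), with 5 PV libraries above the highest of the others. Atp5g2 had medians of 4.95 CPM in PV and 6.96 to 9.45 CPM in the other types, and its fold change of -0.48 ± 0.61 (SE) did not pass (adjusted p = 0.722). Near-identical pseudogene copies held counts equal to 71.4% of those of Atp5g2 and 30.4% of those of Atp5g1, so the split of reads between these genes is uncertain, while Atp5g3 had no such copy.

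In complex I, Ndufv2 had the smallest p. It encodes a subunit of the electron input module, and its lowest, median and highest levels were 118, 196 and 306 CPM in PV. Its medians were 95.9 CPM in PYC, 134 CPM in SST and 76.9 CPM in VIP. All 20 PV libraries lay above the median of the others and 5 above their highest, with a log2 fold change of 1.11 ± 0.14 (SE; edgeR adjusted p = 1.77e-10). Its partner Ndufv1, which binds NADH, was higher by 0.67 ± 0.21 (SE), and Ndufs1, the largest subunit of the same module, by 0.68 ± 0.18 (SE). Ndufs4, an accessory subunit of that module, was higher by 0.57 ± 0.17 (SE). Ndufb6, of the membrane arm, had the largest called fold in the complex at 1.48 ± 0.55 (SE), with medians of 17.1 CPM in PV and 3.04 to 4.54 CPM in the other types. It was chosen for its size after its values were seen, and it was below the median abundance of the genes tested.

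Complex II feeds electrons from the citric acid cycle into the chain. Sdha, its flavoprotein, had 216, 295 and 425 CPM in PV against medians of 227, 253 and 199 CPM in PYC, SST and VIP. It was higher in PV by 0.57 ± 0.11 (SE; edgeR adjusted p = 1.12e-05), with the ranges overlapping so that 1 PV library lay above the highest of the others. Sdhb, the iron-sulfur subunit, was higher by 0.55 ± 0.19 (SE; adjusted p = 0.0322), and this call was lost in 9 of the 20 fits that left out 1 PV library. The membrane anchors Sdhc (0.31 ± 0.27, SE) and Sdhd (1.09 ± 0.42, SE) did not pass.

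In complex III, the core protein gene Uqcrc1 had 73.4, 213 and 329.6 CPM in PV and medians of 116 CPM in PYC, 118 CPM in SST and 83.04 CPM in VIP. Its log2 fold change was 0.998 ± 0.14 (SE; edgeR adjusted p = 5.38e-09), and 19 PV libraries lay above the median of the others. Uqcrfs1, the Rieske iron-sulfur protein, was higher by 0.91 ± 0.25 (SE). Cyc1, which encodes cytochrome c1 of the same complex and falls outside the symbol rule, was higher by 1.002 ± 0.20 (SE; adjusted p = 5.64e-05).

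Complex IV, cytochrome c oxidase, held the member with the largest log2 fold change in PV. Subunit 6A has a widely used form, Cox6a1, and a second form, Cox6a2, known chiefly from heart and skeletal muscle. Cox6a2 (chromosome 7, 128205435 to 128206387, GRCm38) had counts in 20 of 20 PV libraries, 9 of 21 PYC, 6 of 21 SST and 6 of 21 VIP libraries. Its lowest, median and highest levels in PV were 7.79, 33.2 and 76.0 CPM, and its median was 0 in each other type, with highest values of 6.51 CPM in PYC, 14.8 CPM in SST and 15.8 CPM in VIP. Of the PV libraries, 17 lay above the highest of the other 63. The fitted log2 fold change was 4.78 ± 0.69 (SE; edgeR adjusted p = 1.48e-08), a size that depends on the many zeros in the other types. It passed in old and in young libraries fitted alone. As it is one of the members of low abundance, its calls by DESeq2 (adjusted p = 6.70e-06, log2 fold change 4.79) and limma-voom (adjusted p = 3.05e-29, log2 fold change 6.92) are given beside it. Cox6a2 overlaps an antisense exon of Itgad over 70 bases, and the sources used here do not give the strand setting of the counts. No promoter window of Cox6a2 is shown.

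**Figure D3:**
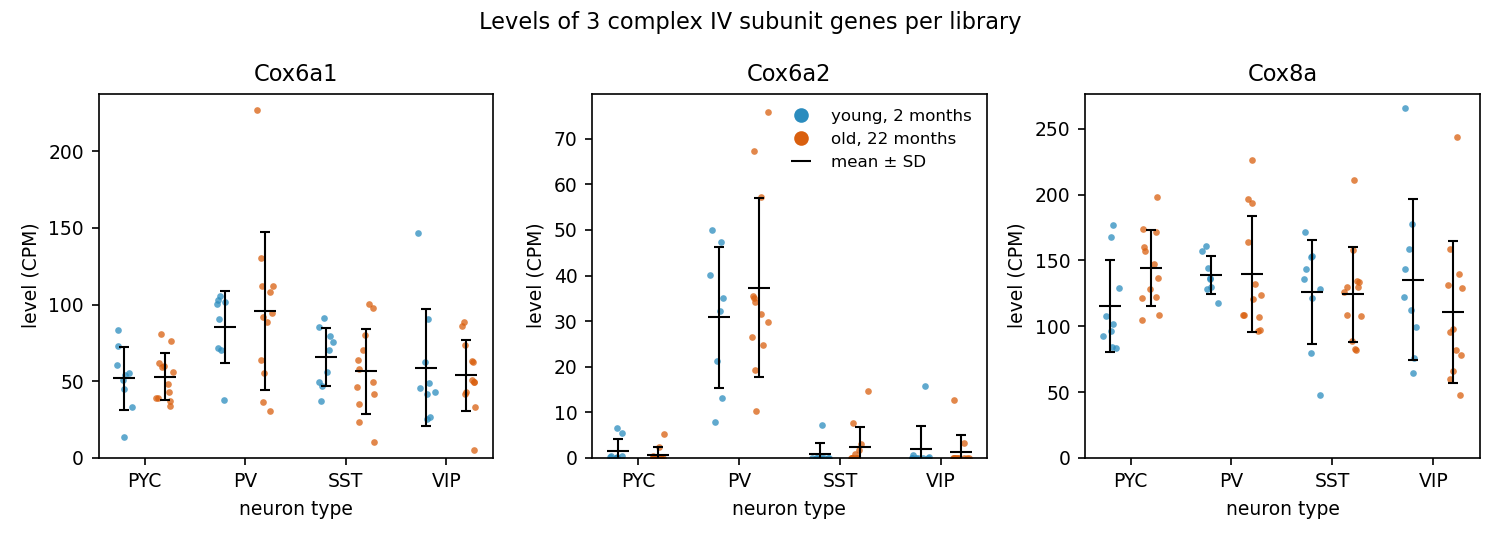
Level in CPM (y axis) of Cox6a1, Cox6a2 and Cox8a in each library, by neuron type (x axis), with young libraries in blue and old in orange. Points are libraries and bars give the mean ± SD of a group. Cox6a2 had counts in all 20 PV libraries and a median of 0 CPM in each other type, Cox6a1 was higher in PV with overlap, and Cox8a had medians of 112 to 131 CPM in all types.

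Cox6a1 was higher in PV as well. It had 30.4, 93.2 and 227 CPM in PV against medians of 54.3, 57.8 and 49.3 CPM in PYC, SST and VIP, a log2 fold change of 0.76 ± 0.18 (SE; edgeR adjusted p = 9.07e-04). Per kilobase of exon, Cox6a1 averaged 130.5 CPM and Cox6a2 51.1 CPM in PV. In the other types Cox6a1 averaged 74.8 to 86.0 CPM per kilobase and Cox6a2 1.48 to 2.46. The muscle or tissue-specific forms of other complex IV subunits were rarely detected. Cox4i2, Cox6b2, Cox7a1, Cox7b2, Cox8b and Cox8c had counts in 1 to 15 of the 83 libraries and did not pass the filter on low counts. Counts of Cox8b (4 libraries) and Cox8c (1 library) were all in PV. In the other types, Cox4i2, Cox7a1 and Cox7b2 reached 11.7, 20.7 and 17.2 CPM. Ndufa4l2, with counts in 6 libraries, did not pass the filter either.

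Most of the common forms were higher in PV. Of the 14 tested members of complex IV, 4 did not pass in edgeR, among them Cox8a, Cox4i1 and Cox7a2l. Cox7a2l had the lowest log2 fold change of the complex, 0.20 ± 0.36 (SE). Cox6b1 had 54.6, 86.9 and 148 CPM in PV against medians of 33.7, 33.6 and 35.7 CPM in PYC, SST and VIP, and was higher by 1.41 ± 0.21 (SE; edgeR adjusted p = 2.04e-08). Cox5b was higher by 0.89 ± 0.12 (SE), Cox7b by 1.22 ± 0.25 (SE), Ndufa4 by 1.34 ± 0.32 (SE), Cox5a by 1.09 ± 0.29 (SE) and Cox7a2 by 0.90 ± 0.26 (SE). Cox8a had the highest level per kilobase of all members, 209 CPM, and medians of 131 CPM in PV, 128 in PYC, 129.5 in SST and 112 in VIP. Its PV difference of 0.24 ± 0.13 (SE) did not pass (edgeR adjusted p = 0.236), with a 95% interval of -0.02 to 0.49. Cox4i1 likewise gave 0.29 ± 0.20 (SE; adjusted p = 0.374), with an interval of -0.09 to 0.68 and medians of 44.1 to 57.5 CPM in the 4 types. For both genes the interval ended below the members' median of 0.79, and the limma-voom fit called Cox8a at 0.32 (adjusted p = 0.032).

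**Figure D4:**
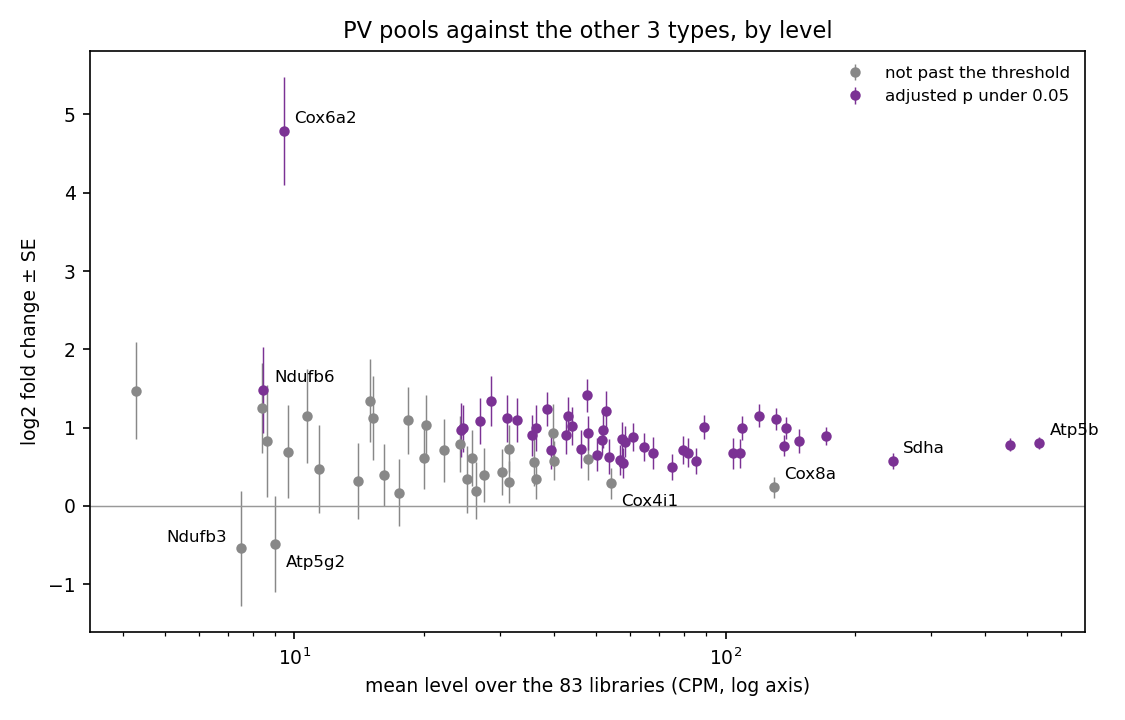
Log2 fold change in PV against the other 3 types, with its SE (y axis), by mean level in CPM over the 83 libraries on a log axis (x axis), for the 79 tested members. Called members are purple and the others grey. Most grey points lie above 0 at lower levels with wide errors, while Cox8a lies low with a narrow error.

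Among the 32 members not called in PV, 30 were above 0 and 18 were above 0.5. Their mean levels had a median of 21.2 CPM against 56.8 CPM for the called members, and their standard errors a median of 0.395 against 0.207. Ndufb3 and Atp5g2 were the 2 below 0, at -0.54 ± 0.73 (SE) and -0.48 ± 0.61 (SE).

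The PV difference was then taken against each type in turn. Higher in PV were 33 members against PYC (7.39% of all genes), 22 against SST (4.19%) and 42 against VIP (7.01%), and none was lower. A set of 19 was higher in PV against all 3, among them Atp5a1, Atp5b, Atp5c1, Atp5f1, Atp5g3, Atp5j, Atp5k, Atp5o, Cox5b, Cox6a1, Cox6a2, Cox6b1, Cox6c, Cox7b, Ndufv2, Sdha, Uqcrc1 and Uqcrh. These comparisons share the PV libraries. Atp5b was higher by 0.75 ± 0.10 (SE) against PYC, 0.68 ± 0.10 (SE) against SST and 0.98 ± 0.10 (SE) against VIP. Fitted within 1 age, the count was 25 in old libraries, where 4.84% of all genes were higher, and 19 in young libraries, where 3.54% were, with 15 in both and 29 in either. All 47 were above 0 in each age, and the medians of the 79 members were 0.70 in old and 0.87 in young libraries.

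VIP pools lay at the other end. Against the mean of the other 3 types, 23 members were lower in VIP (4.18% of all genes were lower) and 0 were higher (7.79%), with a median log2 fold change of -0.50 against 0.07 for all genes. By complex, 6 of 36 in complex I, 2 of 4 in II, 1 of 8 in III, 4 of 14 in IV and 10 of 17 in V were lower. Of the 23, 21 were also higher in PV, and PV is part of the comparator here. Without PV in the comparison, 4 of 79 members (5.06%) were lower in VIP than in PYC, namely Atp5c1, Atp5f1, Ndufv2 and Uqcrc1. That share is near the 4.26% of all genes, so the count is no result about the members. Against SST, 5 of 79 (6.33%) were lower in VIP (Atp5b, Atp5c1, Atp5h, Ndufb4 and Ndufv2), where 3.24% of all genes were. In libraries of 1 age, 6 members were lower in VIP among old libraries (1.44% of all genes) and 7 among young libraries (1.57%).

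Ndufv2 and Atp5c1 were the members lower in VIP than in both. Ndufv2 had 23.3, 76.9 and 167 CPM in VIP libraries, and 18 of the 21 lay below the median of the 42 PYC and SST libraries. Its log2 fold change was 0.56 ± 0.18 (SE; edgeR adjusted p = 0.0333) for PYC against VIP and 0.77 ± 0.18 (SE; adjusted p = 0.00239) for SST against VIP. Atp5c1 had 19.7, 67.3 and 161 CPM in VIP, with 18 of 21 below that median as well, and gave 0.60 ± 0.19 (SE) for PYC and 0.70 ± 0.19 (SE) for SST against VIP. Among the members called against the mean of the other types, Atp5b gave -0.50 ± 0.08 (SE), Uqcrc1 -0.82 ± 0.15 (SE), Atp5f1 of the peripheral stalk -0.84 ± 0.17 (SE), Atp5j of the same stalk -0.77 ± 0.17 (SE), Cox5b -0.54 ± 0.12 (SE) and Sdhb -0.74 ± 0.20 (SE). The 2 that were lower in VIP but not called in PV were Ndufb4 and Ndufa1, accessory subunits of complex I. Ndufa1 was below the median abundance. Ndufb4 shares sequence with Ndufb4c, whose counts came to 35.0% of its own. Without the 6 libraries with few mitochondrial counts, 17 of 79 members were called lower in VIP, and 686 of all 19556 genes were. With no filter on low counts, 22 of 88 members were lower and 2 higher. Of all 40138 genes in that fit, 867 were lower and 4445 higher.

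PYC and SST had few called members. In PYC, 2 members were lower than the mean of the other types (5.31% of all genes were), among them Atp5a1, with a log2 fold change of -0.43 ± 0.09 (SE; edgeR adjusted p = 1.71e-04). Its call was lost in old libraries alone. In SST, 0 members were called by edgeR or DESeq2 and 2 by limma-voom (8.01% of all genes were called by edgeR), and 2 had an unadjusted p under 0.05. Directly between PYC and SST, 0 of 79 differed although 10.8% of all genes did, and 1 had an unadjusted p under 0.05. The median log2 fold change of PYC against SST was -0.08, with a range of -0.56 to 1.004.

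The other genes of the pathway were read from 4 lists chosen with earlier results of these data known. Of the 13 mitochondrially encoded subunits, 10 (76.9%) were higher in PV, against 8.29% of all genes, with a median log2 fold change of 0.59. They were mt-Nd1, mt-Nd2, mt-Nd5, mt-Nd6, mt-Cytb, mt-Co1, mt-Co2, mt-Co3, mt-Atp6 and mt-Atp8, and the other 3 (mt-Nd3, mt-Nd4 and mt-Nd4l) were at 0.42 to 0.52. Their summed level had a lowest, median and highest of 11089, 14802 and 20662 CPM in PV. In PYC these were 980, 11589 and 14107 CPM, in SST 3410, 11846 and 14363 CPM, and in VIP 1831, 10724 and 18136 CPM, where the lowest values came from libraries with few mitochondrial counts. All 6 such libraries are of PYC, SST or VIP, which are the comparators of PV, and none is a PV library. Without them, 11 of the 13 were higher in PV (8.66% of all genes were), with mt-Nd4 added and a median log2 fold change of 0.45. The lowest, median and highest summed levels were then 5075, 11674 and 14107 CPM in PYC, 8199, 11867 and 14363 CPM in SST, and 8598, 11637 and 18136 CPM in VIP. None of the 13 was called in PYC, SST or VIP by edgeR with all libraries. Without the 6 libraries, 3 were lower in PYC (mt-Co3, mt-Cytb and mt-Nd5) and 1 in SST (mt-Nd1). Of all 19556 genes in that fit, 994 were lower in PYC and 512 in SST.

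Of 43 assembly factors tested, 3 (6.98%) were higher in PV, a share near the 8.29% of all genes, so the count is no result about the list. They were Atpaf1 (1.79 ± 0.30, SE), a chaperone of the ATP synthase head, Cox15 (1.61 ± 0.32, SE), which makes the haem of complex IV, and Uqcc1 (0.93 ± 0.33, SE), an assembly factor of complex III. The list's median log2 fold change was 0.48, against -0.05 for all genes, with 37 of 43 above 0. Of 13 electron carriers and coenzyme Q genes, 3 (23.1%) were higher in PV, namely the cytochrome c gene Cycs (1.15 ± 0.16, SE), Cyc1 and Coq9. Both Cycs and Cyc1 were lower in VIP, at -0.67 ± 0.17 (SE) and -0.74 ± 0.22 (SE), and the call of Cyc1 was lost without the 6 libraries with few mitochondrial counts.

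Among 20 regulators of mitochondrial gene expression, 5 (25%) were higher in PV, against 8.29% of all genes. Ppargc1a, the transcriptional coactivator PGC-1 alpha, had a log2 fold change of 1.78 ± 0.15 (SE; edgeR adjusted p = 3.65e-20). The estrogen-related receptors Esrra (1.30 ± 0.45, SE), Esrrb (3.81 ± 0.72, SE) and Esrrg (3.04 ± 0.35, SE), nuclear receptors that act with it, were higher, as was Lrpprc (0.74 ± 0.17, SE), which stabilises mitochondrial mRNA. Esrrb and Esrra had the largest standard errors of the 5, and calls of this list by DESeq2 or limma-voom are not given here. Ppargc1a was lower in PYC (-1.23 ± 0.17, SE) and in VIP (-0.60 ± 0.16, SE). The factors whose motifs were counted above did not pass in PV, with Nrf1 at -0.17 ± 0.37 (SE), Gabpa at -0.33 ± 0.59 (SE) and Yy1 at 0.19 ± 0.35 (SE).

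The second comparison asked whether the members changed with age within each type. At an adjusted p under 0.05, 0 members and 0 of all genes (0%) were called by edgeR in any of the 4 types, each fitted alone. With the 8 groups fitted together, edgeR also called 0 members for age in each type. Of the 19208 genes in that fit, 13 were called in PYC, 1 in PV and 0 in SST and VIP. The members' lowest edgeR adjusted p there was 0.0858 in PYC, 0.111 in VIP, 0.489 in PV and 0.537 in SST. DESeq2 and limma-voom also called 0 members in each type, with the filter on low counts. With no filter, edgeR called 4 members in PYC, where it called 20.4% of all genes, and 3 each in PV (20.9%), SST (18.5%) and VIP (21.4%), among them Ndufs4 and Ndufb4 in PYC and Ndufa13 in VIP. Tested with the filter were 78 members in PYC, 79 in PV, 78 in SST and 77 in VIP. An unadjusted p under 0.05 was reached by 6 members in PYC (2.91% of all genes), 3 in PV (2.32%), 1 in SST (2.87%) and 4 in VIP (2.98%).

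**Figure D5:**
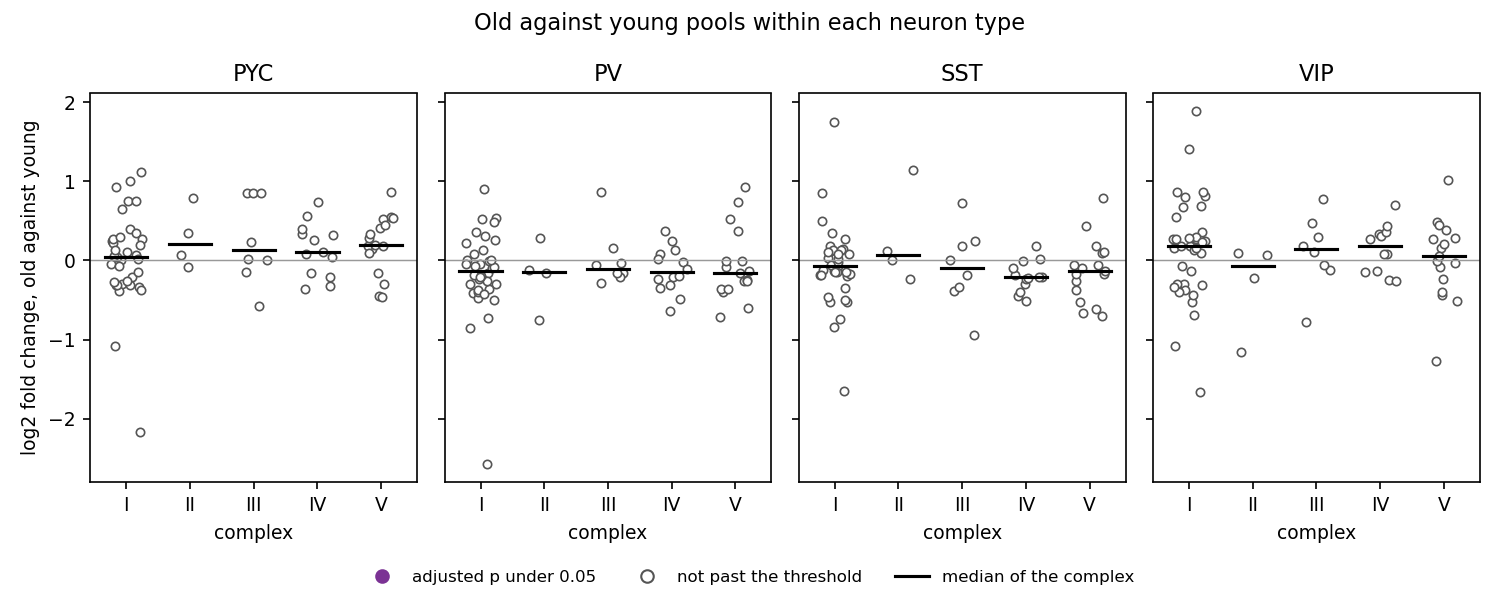
Log2 fold change of old against young libraries (y axis) for each tested member, by complex (x axis), in each neuron type. Open points did not reach an adjusted p of 0.05, which holds for every member, and bars mark the median of a complex. Medians lie between -0.21 and 0.21 in every complex and type.

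The medians over the members lay near 0 and differed in sign between types. Old against young, they were 0.12 in PYC with 52 of 78 above 0, and 0.15 in VIP with 47 of 77 above 0. In PV the median was -0.16 with 24 of 79 above 0, and in SST -0.12 with 29 of 78 above 0. For all genes the medians were between -0.01 and 0.02. Without the libraries with few mitochondrial counts, the members' median was 0.06 in PYC with 45 of 78 above 0, 0.01 in VIP with 39 of 78 above 0 and -0.16 in SST with 28 of 78 above 0, and PV has no such library. When 1 library was left out, the medians ranged from 0.08 (without young PYC 2) to 0.21 in PYC, from 0.08 (without young VIP 1) to 0.20 in VIP, from -0.18 to -0.07 in PV and from -0.17 to -0.04 in SST. In summed levels, complex V of PYC averaged 1354 ± 171 CPM (SD, n = 9) in young and 1638 ± 201 CPM (SD, n = 12) in old libraries. In PV it averaged 2589 ± 358 CPM (SD, n = 8) in young and 2479 ± 402 CPM (SD, n = 12) in old libraries, a gap smaller than either SD.

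In PYC the smallest p was that of Ndufs4. Its lowest, median and highest levels were 15.5, 52.8 and 103 CPM in young and 49.0, 88.5 and 186 CPM in old libraries, and 11 of 12 old libraries lay above the young median. The log2 difference was 0.9998 ± 0.31 (SE; edgeR unadjusted p = 0.0026, adjusted p = 0.9998). Atp5o, which links the stalk of the ATP synthase to its head, differed by 0.87 ± 0.35 (SE), the complex III core gene Uqcrc2 by 0.86 ± 0.39 (SE) and Ndufb4 by 1.12 ± 0.52 (SE), none past the adjusted threshold. On the lower side, Ndufb2, Ndufs1, Uqcr11 and Ndufv3 gave -2.17, -0.37, -0.57 and -0.33 with unadjusted p-values of 0.0654 or more.

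In PV, Atp5h of the peripheral stalk had 61.8, 96.5 and 219 CPM in young and 58.1, 169.6 and 248 CPM in old libraries. The ranges overlapped, with 10 of 12 old libraries above the young median, and the log2 difference was 0.52 ± 0.23 (SE; edgeR unadjusted p = 0.0274). Uqcr10, Ndufb10 and Atp5j2 had differences of 0.87, 0.37 and 0.74. Atp5g3 went the other way, with 38.6, 80.6 and 136 CPM in young and 22.3, 54.1 and 85.6 CPM in old libraries (-0.61 ± 0.28, SE; unadjusted p = 0.0330). Ndufb3 gave -2.58 ± 1.25 (SE) at levels under 10 CPM in all old libraries, and Ndufs6 and Atp5c1 gave -0.86 and -0.36.

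In SST, Uqcr11 of complex III had 14.5, 55.0 and 62.5 CPM in young and 8.06, 23.8 and 44.1 CPM in old libraries. None of the 12 old libraries lay above the young median, and the log2 difference was -0.94 ± 0.40 (SE; edgeR unadjusted p = 0.0240). Cox5b, Atp5d and Atp5g3 gave -0.40, -0.52 and -0.66, and Atp5c1, Sdhd, Ndufc2 and Ndufs1 gave 0.43, 1.14, 1.75 and 0.35, with unadjusted p-values of 0.0647 or more.

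In VIP, Ndufa13, an accessory subunit of complex I, had 45.2, 68.0 and 152 CPM in young and 12.4, 35.5 and 86.0 CPM in old libraries. Of the 12 old libraries, 8 lay below the lowest young one, with a log2 difference of -1.08 ± 0.37 (SE; edgeR unadjusted p = 0.00582). Ndufb10, Atp5mpl and Uqcr11 gave -0.69, -1.27 and -0.77. Ndufv2 (0.67 ± 0.31, SE), Cox6c (0.71 ± 0.32, SE) and Cox5b (0.43 ± 0.25, SE) were on the other side. None of these passed after adjustment.

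Whether the age difference differed between types was tested directly, with 3 degrees of freedom in the fit of all groups. Of all genes, 601 (3.13%) passed by edgeR, 1 by DESeq2 and 8 by limma-voom. Of the 79 members, 0 passed by any of the 3, and 3 did by edgeR with no filter on low counts, where 19.1% of all genes passed. Cox5b was the one member with an unadjusted p under 0.05 (edgeR p = 0.0113, adjusted p = 0.153). Its differences, old against young, were -0.40 in SST and 0.43 in VIP, as given above. In SST its medians were 199 CPM in young and 159 CPM in old libraries, and in VIP 128 and 145 CPM.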

How the data were processed

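Laser-captured pools of neurons were sequenced as total RNA with a stranded kit for picogram input, per the labels' protocols. The deposited table holds raw read counts per Ensembl gene, not normalized by the authors. The submitters' processing notes name HISAT2 and GRCm38. How reads were counted (tool, annotation, strand) is not stated in the sources at hand. Values are therefore uncertain for the 26 members with antisense exon overlap, the 5 with overlap on the same strand and the 19 with a near-identical pseudogene copy (at least 95% identity over 200 bases). Exon lengths, symbols and positions came from GENCODE M21.

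Levels are CPM of the library total. Tests used edgeR 4.0.16 in R 4.3.3 (quasi-likelihood, robust, TMM, filterByExpr with a minimum count of 10, 2-sided, Benjamini-Hochberg over all genes tested), for age within a type and, with the 8 groups fitted together, for types. Standard errors of the log2 fold changes came from the F statistic. The series gives 9 young and 12 old mice, and nothing says that the libraries of a group came from separate mice, so p-values measure only the spread between these samples. The members and lists were chosen with earlier results of these data known. The text names, in a type comparison, up to 8 called members per direction by smallest adjusted p and, in an age comparison, up to 4 per direction by smallest unadjusted p, beside a fixed panel of core subunits and paralogs. Some genes that this rule names are not reported here. DESeq2 1.42.0, limma-voom (limma 3.58.1), other scalings and filters, covariates, 1 age alone and leaving out libraries were tried. Age was also read from the fit of the 8 groups.

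On simulated data the age tests made few false calls. The type and interaction tests made few in the more abundant 50% of genes but far more than the threshold allows in the less abundant 50%. The design was kept as fixed, and calls of members of low abundance are named as such.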

Additional observations from a re-analysis of the deposited data

Results flagged for a closer look

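Of 28 sets of libraries tested for a value far from the rest (7 measures in the 4 young groups), 4 were flagged, where chance gives about 5%. That rate does not apply to Cox6a2, which was at or near 0 in most young VIP and SST libraries. There, a single library with counts stands out. Young VIP library 1 had the lowest summed level of complex I in its group, 864 CPM against 1229.9 to 1581 CPM in the other 8, and the highest Cox6a2, 15.75 CPM against 0 to 0.686 CPM. This is one of the libraries with few mitochondrial counts. Young VIP library 2 had a summed level of complex II of 556 CPM against 211 to 329 CPM in the others. Young SST library 7 had 7.15 CPM of Cox6a2, which had no count in the other 8 young SST libraries.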

How the results depend on the processing

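With all libraries, the number of members higher in PV was 44 to 63 under other scalings, filters, tools and covariates, and 42 to 48 when 1 PV library was left out. It was 25 in old and 19 in young libraries alone, fits with fewer samples. The number lower in VIP was 17 to 22 under the alternatives with all ages, with 2 higher beside it with no filter, 18 to 23 when 1 VIP library was left out, and 6 in old and 7 in young libraries alone. In PYC the number lower was 4 with DESeq2, 0 in old and 1 in young libraries alone, and with no filter 4 were called, 3 lower and 1 higher. In SST the number called was 1 with no filter, 1 with the title's F number, which the labels do not explain, and 2 with limma-voom. Age calls were 0 when any 1 library was left out, and with no filter on low counts they were 4 in PYC and 3 each in PV, SST and VIP, with 3 for the interaction, while 18.5% to 21.4% of all genes were called for age and 19.1% for the interaction. The cause was not tested. Over all genes the interaction was called for 601 by edgeR, 8 by limma-voom and 1 by DESeq2. The setting without libraries low in mitochondrial counts could not be run for age in PV, which has none. No called fold change of a named member turned its direction under the alternatives run. The levels per complex moved by less than 1 SD under either other denominator. No paired analysis was possible because the labels give no replicate or mouse number that groups share. Leaving out 1 PV or VIP library in the type fits, comparing pairs of types, and counting the mitochondrially encoded genes without the libraries low in them were chosen after seeing the data. Depth limits the members with low counts: 9 had a count in fewer than 21 libraries.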
